A study of Mus musculus with 6 samples.

Results

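Histone lysine methyltransferases and demethylases are the enzymes that add methyl groups to, or take them off, lysines of the histone tails. Members were the genes whose symbols begin with Kdm, Kmt, Prdm, Setd, Ehmt, Ezh, Suv39h, Suv420h, Nsd, Smyd or Ash1l (a digit had to follow Kdm, Kmt and Prdm), with Kdm5d and Dot1l left out. The rule used symbols and no measured value, and found 64 of the 19571 genes in the table. Of these, 61 are enzyme genes or relatives with a SET, PR or JmjC domain, and 3 matched the rule without being enzyme genes: Nsdhl, a dehydrogenase of cholesterol synthesis, Kdm6bos, an antisense RNA at Kdm6b, and Kdm4dl, annotated as an unprocessed pseudogene next to Kdm4d, with which it shares sequence.

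The cells were E14, a mouse embryonic stem cell line, kept on gelatin in serum with leukaemia inhibitory factor (LIF), and their total RNA was sequenced. There were 3 samples of cells with Dot1l removed by CRISPR/Cas9, genotype Dot1L-/- (KO), and 3 of wild type (WT), all labelled day 14, and the question is which transcripts differ once Dot1l is lost. The labels speak of knockout lines without saying how many, whether any is a single clone, whether samples came from separate cultures, or what day 14 is counted from, so p-values measure only the spread between these samples. For each gene the deposited table holds a mean of normalized counts across libraries, a log2 fold change, its standard error (SE) and a DESeq2 p-value; values per sample and library depths were not analysed here.

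Which genotype a positive fold change favours is not written in the table. It was taken as higher in KO because published work describes the 2-cell-like programme as held down by Dot1l, and its marker genes carry positive values; under the opposite sign every direction below turns round. Levels given per genotype are implied by the mean and the fold change under equal group sizes, and carry no error of their own. The samples are bulk RNA, so fewer cells of a type and less RNA per cell cannot be told apart. Stem cell identity matched the label: all 10 stem cell markers on the list, Pou5f1, Sox2 and Nanog among them, were measured, and their implied levels summed to 260044 normalized counts in WT and 240811 in KO. Markers of other states differed between the genotypes. Of 10 markers of the 2-cell-like state, 8 passed with positive values (summed level 54.5 in WT and 3228 in KO). Their direction is no result, as the sign above was chosen from these markers. Under that sign 7 of 9 markers of primitive endoderm rose (3426 and 7000). So did 6 of 12 of germ cells, where Nanos3 fell (6001 and 12127). Of 7 fibroblast markers 5 rose, Col1a1, Col1a2, Col3a1, Col5a1 and Thy1. The summed level of the list was lower in KO (49217 and 35745) and is carried by Fn1 (39210 and 26736) and Vim (8900 and 6382), which did not pass. Foxa2, Postn, Dcn and Lum from these lists had no entry, and the part of these states in the results below was not tested.

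Histone lysine methylation carries different meanings at different residues. Methylated lysine 4 of histone H3 (H3K4) marks promoters and enhancers, H3K36 and H3K79 mark transcribed gene bodies, and H3K9, H3K27 and H4K20 mark silent or compact chromatin. Most methyltransferases share a catalytic SET domain, of which the PR domain of the PRDM proteins is a variant; Dot1l, which writes H3K79, is the exception with no SET domain. Demethylases are of 2 kinds, the amine oxidases LSD1 and LSD2 and the larger group of JmjC proteins. In embryonic stem cells these enzymes hold developmental genes poised, silence retroviruses and limit the passage to the 2-cell-like state.

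Most genes of these families, like most genes of the table, did not pass the test. At an adjusted p under 0.05 from the authors' deposited table, there were 2 members that rose, 0 that fell and 62 that did not pass. The members called were 3.13% of the 64, while 6.58% of all 19564 genes with a p were called, 5.34% higher and 1.25% lower. By unadjusted p under 0.05 in the authors' deposited table, 3 members (4.69%) differed, against 16.2% of all genes. These counts of members, like those at higher mean counts below, are small, and the differences in share were not tested. The members that rose were Prdm11, a PR domain gene, and the pseudogene Kdm4dl; the third, Smyd2, was lower by unadjusted p only.

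The members' fold changes were centred near 0, with a spread like that of long protein-coding genes. In the authors' deposited table their log2 fold changes had a median of 0.03 and quartiles of -0.21 and 0.22, where all genes had a median of -0.02 and quartiles of -0.36 and 0.46. Among protein-coding genes with a mean of at least 50, those in the longest of 5 exon-length bins had quartiles of -0.19 and 0.26. Those in the next longest bin had -0.28 and 0.21. These bins hold 29 and 16 of the 60 members with such a mean. Values lay above 0 for 33 of the 64 and below 0 for 31. An absolute log2 fold change of at least 1 was reached by 3 members (4.69%), against 17.8% of all genes. Members are well expressed, with a median mean of 1832 normalized counts against 278 over all genes, and at a mean of at least 50 their median SE was 0.30 against 0.35. Restricted to a mean of at least 50, 1 of 60 members passed (1.67%), against 5.55% of the 13276 genes at that level. In the same genes, 1 of 60 members (1.67%) had an absolute log2 fold change of at least 1, against 8.3% of genes. The median log2 fold change of these 60 members was 0.003, above that of the 13276 genes at -0.11.

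**Figure D1:**
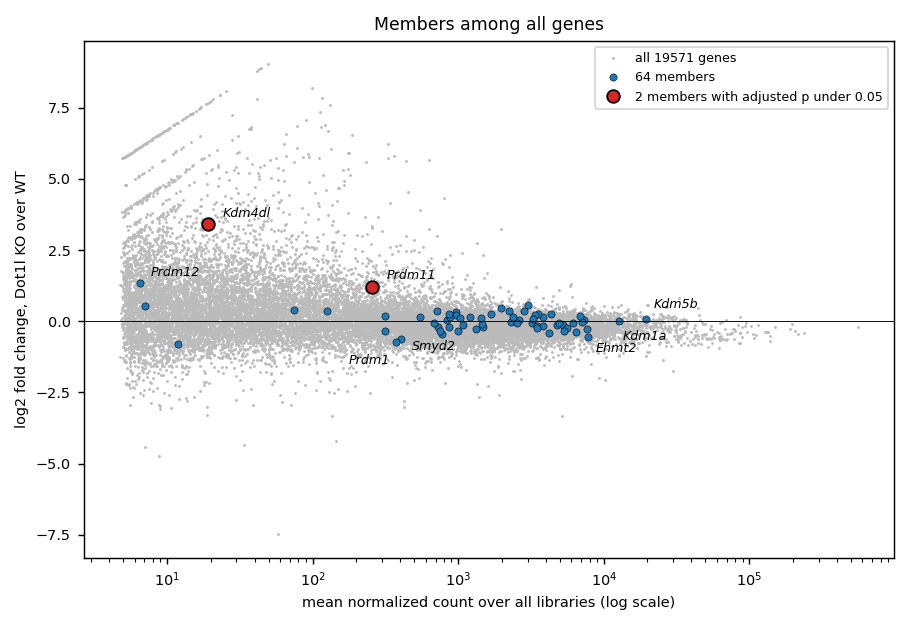
Log2 fold change of Dot1l KO over WT against the mean normalized count over all libraries (log axis), for all genes (grey) and the 64 members (blue; red where the adjusted p is under 0.05). Members with a mean of at least 50 lie between -1 and 1, except Prdm11 at 1.22; Kdm4dl stands at 3.43 with a mean of 19.1.

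How small a change could have been seen was set by the SE of each gene. The weakest call in the table had an absolute Wald statistic, the fold change over its SE, of 2.94, so a member with a mean of at least 50 needed an absolute log2 fold change of 0.68 to 1.78 to pass, with a median of 0.89. For 44 of those 60 members (73.3%) the 95% interval lay wholly between -1 and 1 on the log2 scale; this held for 48.4% of all genes with such a mean. For the other members the interval reaches past 1 or -1. The SE in the authors' deposited table was lowest for Setd3 at 0.23 and, at a mean of at least 50, highest for Setd1b at 0.60.

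**Figure D2:**
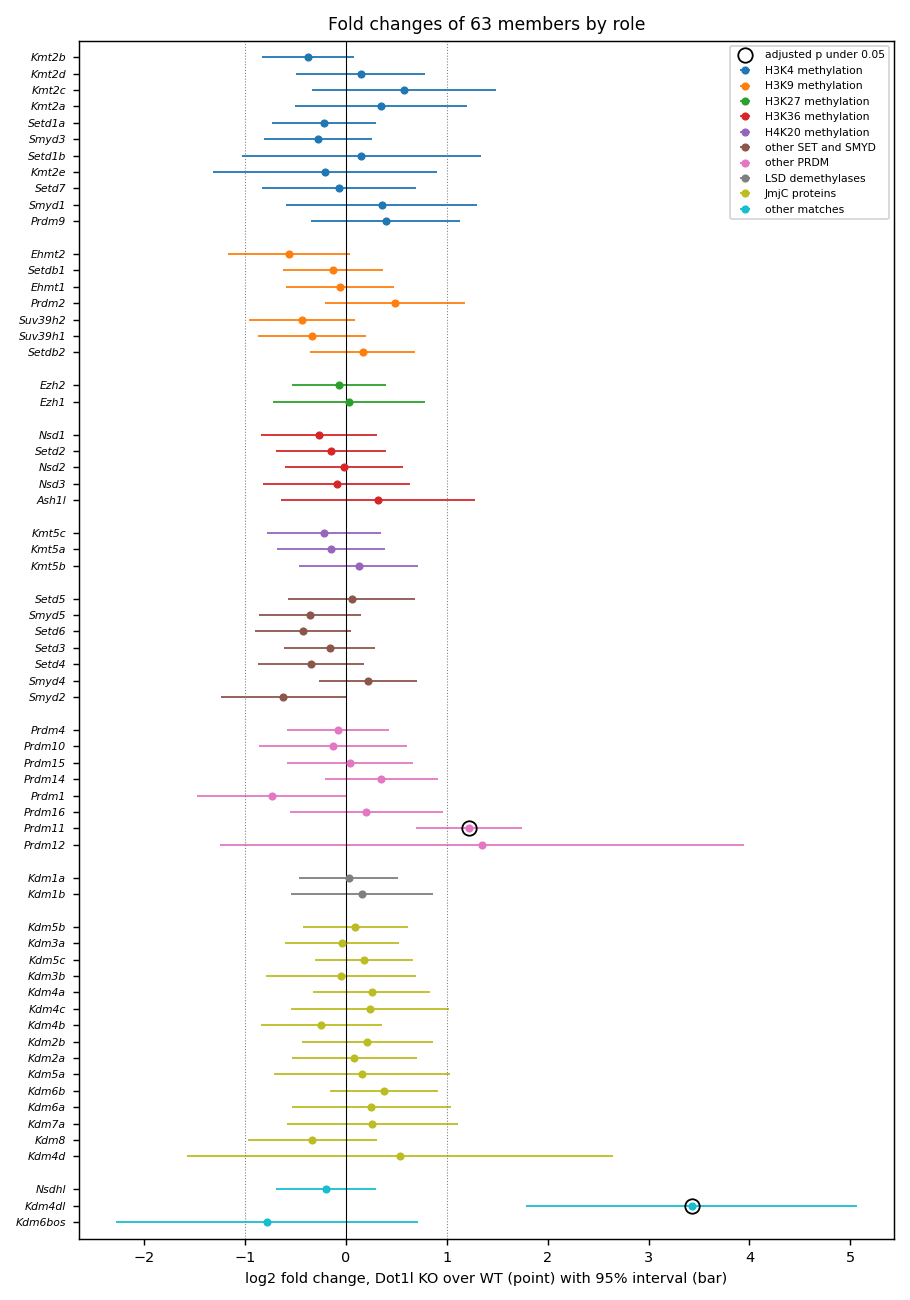
Log2 fold change of Dot1l KO over WT (points) with 95% interval (bars) for 63 of the 64 members, grouped by role and ordered by mean count within a group; rings mark an adjusted p under 0.05 and dotted lines -1 and 1. The intervals of Prdm11 and Kdm4dl lie above 0, while that of Smyd2 ends just below it.

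Prdm11 was the one protein-coding member that rose. It encodes a PR domain protein described as a transcriptional repressor, and lies on chromosome 2 from 92965151 to 93046167 on the minus strand in mm10. Its implied level was 154 normalized counts in WT and 358 in KO. The authors' deposited table gives a log2 fold change of 1.22 ± 0.27 (SE), with a 95% interval of 0.69 to 1.75 and an adjusted p of 0.000320 from DESeq2. Its call was lost with Bonferroni adjustment, at a p of 0.115, and its adjusted p ran from 0.000154 to 0.115 over 9 alternatives. Per kb of annotated exon its level was 9.02 normalized counts in WT and 21.02 in KO, among the lower members. Little of its sequence is shared with other annotated transcripts: 0.617% of the 100-base words of its transcripts also occur in a transcript of another gene. Sequence outside annotated transcripts was not searched, so the source of its reads was not tested. Within 300 kb lie 3 other genes of the table, Syt13, Trp53i11 and Tspan18, and 0 of them passed; in the authors' deposited table they stand at 0.12 ± 0.55, -0.50 ± 0.35 and 1.23 ± 0.74, with unadjusted p of 0.820, 0.150 and 0.0951.

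The promoter of Prdm11 is rich in CpG, as are those of most members. Of the 64 members, 46 have a promoter in the RefSeq table (GRCm38.p6), and the 250 bases before their starts held a median of 22.5 CpG, against 6 over 27025 genes, taking the richest start of each gene. Prdm11 had 32, a count reached by 9 of the 46 members and by 5.18% of all genes. Below it stand Kdm7a, the richest member with 56, and Smyd1, a muscle enzyme with 2, as a member with few; the lowest count of a member was 0, and these examples were chosen after their counts were seen. Each is the 250 bases up to the start, 5′ to 3′ along the gene, with CpG in capitals. Prdm11 covers chr2:93046166-93046415 (minus strand), Kdm7a chr6:39206774-39207023 (minus) and Smyd1 chr6:71262282-71262531 (minus).
Prdm11: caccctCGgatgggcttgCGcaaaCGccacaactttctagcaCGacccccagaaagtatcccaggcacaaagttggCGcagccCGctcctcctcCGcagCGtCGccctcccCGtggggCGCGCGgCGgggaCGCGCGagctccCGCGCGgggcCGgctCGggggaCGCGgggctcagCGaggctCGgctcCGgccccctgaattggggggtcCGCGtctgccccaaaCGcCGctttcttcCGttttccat
Kdm7a: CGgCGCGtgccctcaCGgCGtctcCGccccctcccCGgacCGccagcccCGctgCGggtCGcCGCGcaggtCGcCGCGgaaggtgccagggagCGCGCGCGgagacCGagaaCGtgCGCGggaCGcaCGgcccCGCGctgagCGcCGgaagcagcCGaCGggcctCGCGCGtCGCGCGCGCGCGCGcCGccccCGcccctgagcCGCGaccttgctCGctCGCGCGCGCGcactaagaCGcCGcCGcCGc
Smyd1: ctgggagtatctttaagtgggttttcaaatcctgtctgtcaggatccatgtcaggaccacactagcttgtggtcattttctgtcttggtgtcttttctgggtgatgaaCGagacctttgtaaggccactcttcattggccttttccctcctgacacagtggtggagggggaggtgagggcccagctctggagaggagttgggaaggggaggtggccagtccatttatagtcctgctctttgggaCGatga

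Counting can mix members with other genes where sequence is shared: 12 members share over 5% of their 100-base words with another gene, 46 under 1%, and 25 overlap an exon on the opposite strand. Setd1a (50.5%), Kdm3b (22.7%), Smyd2 (19.2%), Kdm2b (10.4%) and Suv39h1 (10.1%) have uncertain counts for this reason.

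Letters of common promoter elements were searched on both strands of the same windows, at any start of a gene. TCCCGC, part of E2F sites, occurs in 16 of 46 members (34.8%), Prdm11 and Kdm7a among them, and in 18.8% of all genes. TATAAA occurs in 2 of 46 members (4.35%), Smyd1 among them, against 14.3%, CCAAT in 25 (54.3%) against 37.5%, and the E-box CACGTG in 3 (6.52%) against 6.86%. TCCCGC and CACGTG each contain a CG, the pair of letters counted above. A match describes the letters of the window and is not a site. A gene with more annotated starts has more windows to match. For these shares and the CpG counts above, members and all genes were not matched for number of starts or type of gene.

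Kdm4dl, the pseudogene, rose from a very low level. It spans 1187 bases on chromosome 9, from 14450836 to 14452022, and its implied level was 3.26 normalized counts in WT and 35.0 in KO. The authors' deposited table gives 3.43 ± 0.84 with an adjusted p of 0.00173 at a mean of 19.1. The call was lost with Bonferroni adjustment, at a p of 0.853, and with Wald statistics scaled by their interquartile range, at 0.0651; over 8 alternatives the adjusted p ran from 0.000876 to 0.853. Kdm4d itself, a testis-expressed H3K9 demethylase at 14462548 to 14500482, had 5.80 in WT and 8.42 in KO, and the authors' deposited table gives 0.54 ± 1.08 with an adjusted p of 0.885, an interval of -1.58 to 2.65 that leaves its change unknown. Of the 100-base words of Kdm4dl, 9.10% also occur in transcripts of another gene, most often Kdm4d, so a share of its reads may be split between them. Of 9 other genes within 300 kb, 1 passed: Piwil4, a Piwi protein of the germ line named after its value was seen, at 1.04 ± 0.27 with an adjusted p of 0.00320 in the authors' deposited table. Beside Kdm4dl stand the 2-cell-like and germ cell markers given above, 8 of 10 and 6 of 12 of which rose under the sign taken. That sign was chosen from the 2-cell-like markers, and the part of either set in the change of Kdm4dl was not tested.

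The list for H3K4 methylation, 11 genes, had 0 that rose and 0 that fell. With 6.58% of all genes called, a count of 0 in this or the other small groups below does not set a group apart. Kmt2b, which serves bivalent promoters, had the highest count, not scaled by length, at an implied 7257 normalized counts in WT and 5596 in KO; the authors' deposited table gives -0.37 ± 0.23 with an adjusted p of 0.455. Kmt2c, which with Kmt2d primes enhancers, had the largest value at 0.58 ± 0.46 and an adjusted p of 0.616 in the authors' deposited table. Its paralogue Kmt2d stood at 0.14 ± 0.33, and Kmt2a, the MLL1 of leukaemia fusions, at 0.35 ± 0.43, in the authors' deposited table. Setd1a and Setd1b, the main H3K4 trimethylases, stood at -0.22 ± 0.26 and 0.15 ± 0.60 in the authors' deposited table. Of the 100-base words of Setd1a, 50.5% also belong to another gene, mostly the overlapping model Gm49388, so its count depends on how such reads were treated. The meiotic recombination enzyme Prdm9 had 65.0 in WT and 85.2 in KO, with 0.39 ± 0.38 in the authors' deposited table. The remaining members, Kmt2e, Setd7, Smyd1 and Smyd3, lay between -0.28 and 0.35 in the authors' deposited table.

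The H3K9 methyltransferases, 7 genes, also had 0 that rose and 0 that fell, with 5 of 7 values below 0 and a median of -0.13. All genes with a mean of at least 50 had a median of -0.11. Ehmt2 (G9a, chromosome 17, 34898469 to 34914052), which with Ehmt1 writes H3K9 dimethylation, had the highest count of the group and the largest fold change. Its implied level was 9387 in WT and 6333 in KO, and the authors' deposited table gives -0.57 ± 0.31 with a 95% interval of -1.17 to 0.04 and an adjusted p of 0.354. Ehmt1 stood at -0.06 ± 0.27 in the authors' deposited table. The pericentromeric enzymes Suv39h1 and Suv39h2 stood at -0.34 ± 0.27 and -0.44 ± 0.27 in the authors' deposited table, where their adjusted p values are 0.621 and 0.441. Setdb1, which silences retroviruses with Trim28, was at -0.13 ± 0.25 with an interval of -0.62 to 0.37 in the authors' deposited table. Setdb2 and Prdm2 were above 0, at 0.16 ± 0.27 and 0.48 ± 0.35 in the authors' deposited table.

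The catalytic subunits of Polycomb repressive complex 2, Ezh2 and Ezh1, which write H3K27 methylation, also did not pass. Ezh2 had an implied 6290 normalized counts in WT and 5989 in KO, and Ezh1 2616 and 2666. The authors' deposited table gives Ezh2 -0.07 ± 0.24 with an interval of -0.54 to 0.39 and Ezh1 0.03 ± 0.39 with -0.73 to 0.78. Per kb of exon Ezh2 stood above Ezh1 in both genotypes, at 942 and 897 normalized counts against 352 and 358.

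The list for the other gene-body mark, H3K36 methylation, holds 5 members, of which 0 rose and 0 fell. Nsd1, which dimethylates H3K36, had the highest count, not scaled by length, at 8383 in WT and 6975 in KO, with -0.27 ± 0.29 in the authors' deposited table. Per kb of exon Nsd1 was at 479.5 in WT and 399 in KO, and Setd2 at 466 and 421. Setd2, the H3K36 trimethylase that travels with elongating polymerase, stood at -0.15 ± 0.28 with an interval of -0.69 to 0.40 in the authors' deposited table. Ash1l had the largest value, 0.31 ± 0.49, and Nsd2 and Nsd3 stood at -0.02 ± 0.30 and -0.09 ± 0.37, in the authors' deposited table. For H4K20, the enzyme with the highest count was Kmt5c, which makes the trimethyl mark, at 6017 in WT and 5161 in KO, with -0.22 ± 0.29 in the authors' deposited table. The monomethylase Kmt5a at -0.15 ± 0.27 and Kmt5b at 0.12 ± 0.30 did not pass either in the authors' deposited table.

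Among the other SET and SMYD genes, several of which act on proteins other than histones, 5 of 7 values lay below 0, with a median of -0.35, and 0 passed. Smyd2 (chromosome 1, 189880492 to 189922363), which methylates p53 and other proteins, had 494 normalized counts in WT and 321 in KO. The authors' deposited table gives -0.62 ± 0.32, an unadjusted p of 0.0485 and an adjusted p of 0.303. Its exons share 814 bases (30.0% of their length) with the antisense gene Gm37422, which stands at -0.81 ± 0.36 with an adjusted p of 0.192 in the authors' deposited table; whether counting used strand is not stated, so reads of the pair cannot be told apart. Setd6, which methylates the NF-kB subunit RelA, was at -0.43 ± 0.24 and Smyd5 at -0.36 ± 0.26 in the authors' deposited table. Setd5 had the highest count of the group, not scaled by length, at 7180 in WT and 7454 in KO, with 0.05 ± 0.32 in the authors' deposited table. Per kb of exon Setd5 was at 391 in WT and 406 in KO, below Setd6 at 2527 and 1878. Setd3, which methylates a histidine of actin, Setd4 and Smyd4 lay from -0.35 to 0.22 in the authors' deposited table.

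The other PRDM genes, mostly zinc finger transcription factors with little or no known enzyme activity, numbered 9, of which Prdm11 rose and 8 did not pass. Prdm14, which guards the naive state and germ cell fate, had 626 in WT and 798 in KO, with 0.35 ± 0.28 and an adjusted p of 0.623 in the authors' deposited table. Prdm1 (Blimp1), which specifies germ cells, had 464 and 280, and the authors' deposited table gives -0.73 ± 0.38 with an unadjusted p of 0.0541 and an adjusted p of 0.321. Prdm4, with the highest count, was at -0.08 ± 0.26 in the authors' deposited table. Prdm12, a factor of pain-sensing neurons, had the largest value, 1.35 ± 1.33, at a mean of 6.49 normalized counts in the authors' deposited table, and its change is unknown at this depth. Prdm10, Prdm15 and Prdm16 lay from -0.13 to 0.20 in the authors' deposited table.

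The LSD demethylases did not differ detectably. Kdm1a (LSD1, chromosome 4, 136550540 to 136602723), which removes H3K4 methylation with the CoREST complex and restrains the 2-cell-like state, had 12556 normalized counts in WT and 12770 in KO. The authors' deposited table gives 0.02 ± 0.25 with an interval of -0.47 to 0.52. Its relative Kdm1b, which resets H3K4 methylation in oocytes, was at 0.16 ± 0.36 in the authors' deposited table. Per kb of exon Kdm1a stood far above Kdm1b, at 2424 and 2466 normalized counts in WT and KO against 152 and 170.

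The JmjC proteins, 15 genes, had 0 that rose and 0 that fell, with 11 of 15 values above 0 and a median of 0.18. Kdm5b, which removes H3K4 trimethylation, had the highest count of all members, not scaled by length, at 18940 in WT and 20187 in KO, with 0.09 ± 0.27 in the authors' deposited table. Per kb of exon it was at 1144 in WT and 1219 in KO. Kdm1a, Setd6 and Kmt5c (1504 and 1290) stood above it in both genotypes, and Ehmt2 (1710 and 1154) in WT only. The related H3K4 demethylases Kdm5a and Kdm5c were at 0.16 ± 0.45 and 0.18 ± 0.25 in the authors' deposited table. Among the H3K9 and H3K36 demethylases, Kdm4a, Kdm4b and Kdm4c stood at 0.25 ± 0.30, -0.25 ± 0.31 and 0.24 ± 0.40 in the authors' deposited table. The H3K27 demethylases Kdm6a (UTX) and Kdm6b (JMJD3) stood at 0.25 ± 0.40 and 0.38 ± 0.27 in the authors' deposited table; Kdm6b overlaps the antisense Kdm6bos by 286 exon bases, and Kdm6bos stood at -0.78 ± 0.76 at a mean of 11.9. Kdm4d had the largest value of the group and is given above. Kdm2a, Kdm2b, which brings Polycomb complexes to CpG islands, Kdm3a, Kdm3b, Kdm7a and Kdm8 lay from -0.33 to 0.26 in the authors' deposited table. Nsdhl, matched by its letters alone, was at -0.20 ± 0.25 in the authors' deposited table.

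**Figure D3:**
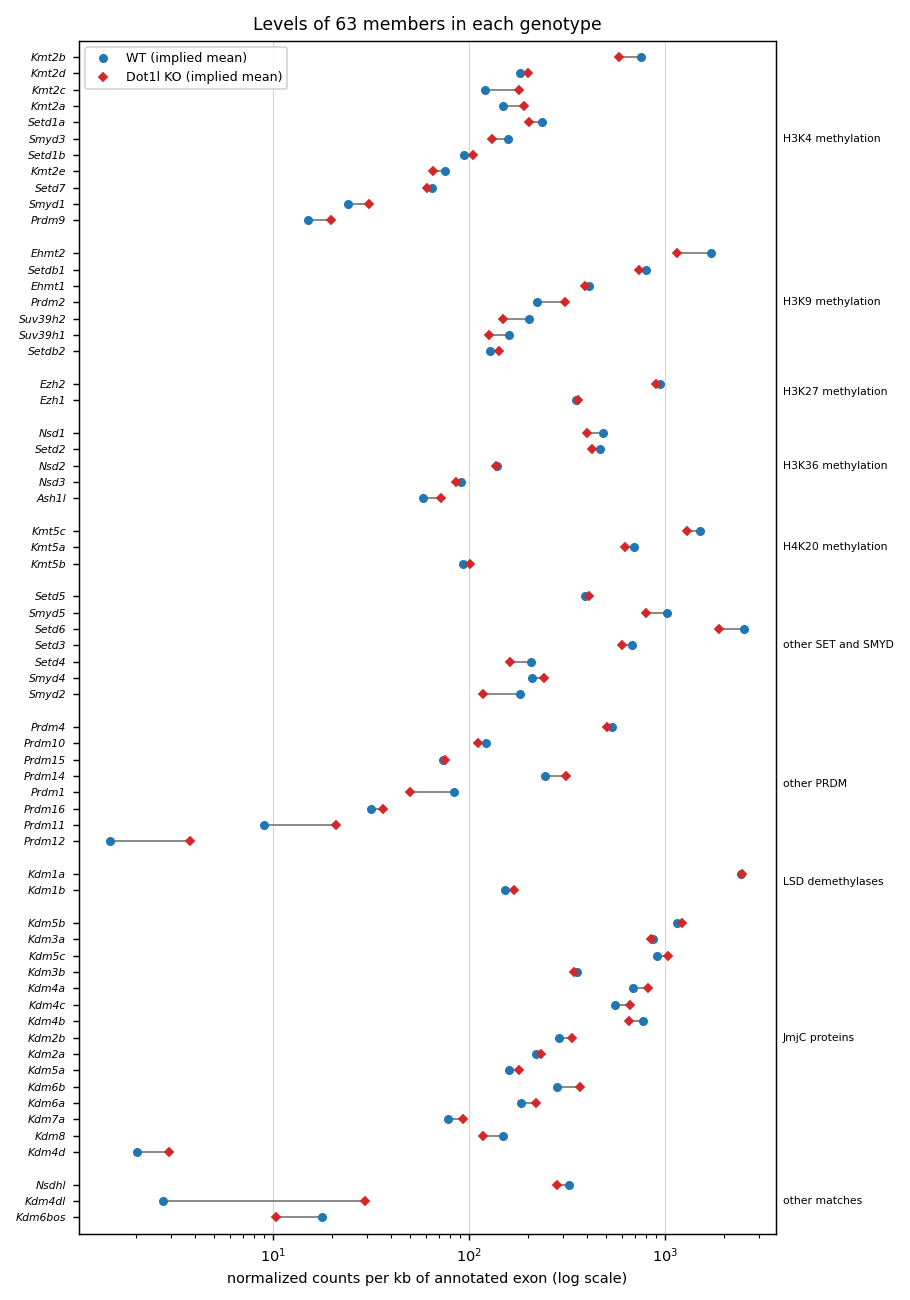
Implied mean level of 63 of the 64 members in WT (circles) and Dot1l KO (diamonds), in normalized counts per kb of annotated exon on a log axis, grouped by role. Kdm1a and Setd6 stand highest, at 2424 and 2527 in WT, and Prdm12, Kdm4d and Kdm4dl lowest, from 1.48 to 2.74; the levels carry no error bars.

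Fold changes of protein-coding genes with a mean of at least 50 moved with exon length and with GC share, and the role groups differ in length. Among those genes, split into 5 bins of annotated exon length, the shortest bin (303 to 2543 bases) had a median log2 fold change of -0.31 and the longest (7667 bases and more) one of 0.03. Members are long, with a median of 7032 exon bases against 4239 for protein-coding genes, and 29 of the 60 with such a mean lie in the longest bin, where their median was 0.08. Across those 60 members Spearman's rho of fold change with exon length was 0.31, and across 12330 genes 0.25, both as a description. An alternative chosen after seeing the data centred fold changes on genes of like length, taken from all genes with a p. These were of any biotype and mean count. The median of the JmjC proteins was then 0.15, that of the H3K9 group -0.16 and that of the other SET and SMYD genes -0.34. Centring on protein-coding genes with a mean of at least 50 alone was not run. Their median was -0.05 in the bin of 5293 to 7666 bases and 0.03 in the longest. The median exon length was 5489 bases in the H3K9 group, 5379 in the other SET and SMYD genes and 8225 in the JmjC proteins. Whether these 3 values hold for that reference was not tested. In 5 bins of GC share the median of those protein-coding genes went from 0.03 in the lowest to -0.32 in the highest. Spearman's rho with GC share was -0.27 across 12330 genes and -0.14 across the 60 members. The part of length and GC share in the values above was not tested further.

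**Figure D4:**
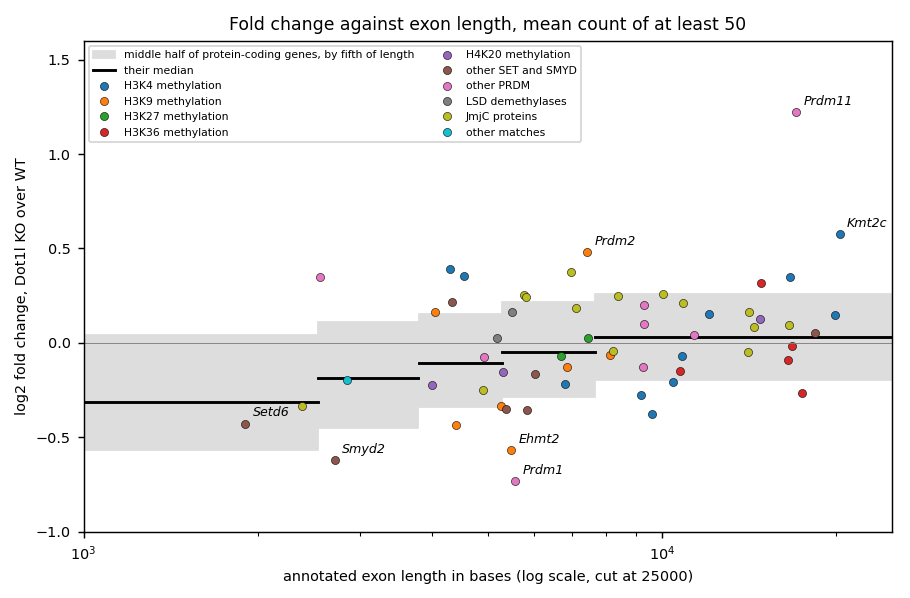
Log2 fold change of Dot1l KO over WT against annotated exon length (log axis) for members with a mean of at least 50, coloured by role. Black lines are the medians and grey bands the quartile ranges of protein-coding genes in 5 bins of length; the median rises from -0.31 to 0.03, and Prdm11 stands far above its band.

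The partners that these enzymes work with were also tested, and 0 of 45 genes in 4 lists passed, where 6.58% of all genes were called. The COMPASS list of H3K4 enzyme subunits had 13 tested genes, with Ash2l lowest in p at -0.45 ± 0.22 and an adjusted p of 0.284 in the authors' deposited table. In the Polycomb list of 10, Phf19, a PRC2 accessory protein that reads H3K36 methylation, came nearest to the threshold: it had 968 in WT and 591 in KO, and the authors' deposited table gives -0.71 ± 0.25 with an adjusted p of 0.0598. The CoREST list of 13 had Hmg20b at -0.84 ± 0.39 with an adjusted p of 0.228, and the 9 partners of the H3K9 enzymes had Atf7ip, which stabilizes Setdb1, at -0.29 ± 0.27 with an adjusted p of 0.684, in the authors' deposited table. By unadjusted p under 0.05 the lists held 0 higher and 3 lower genes of the 45, where 10.6% of all genes were higher and 5.55% lower. Of 9 enzymes of the same classes with other symbols, such as Jmjd1c and Phf8, 0 passed; Mecom, a PRDM relative also called Prdm3, had 7.50 in WT and 26.8 in KO and stands at 1.83 ± 0.70 with an adjusted p of 0.100 in the authors' deposited table. Pagr1a, Ezhip and Gfi1 from these lists had no entry.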

How the data were processed

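Total RNA of 3 Dot1l KO and 3 WT samples was sequenced. The submitters' processing notes name HISAT2 2.1.0, featureCounts 2.0.0, DESeq2 and the build mm10; their settings for strand, shared reads, gene filters and the model are left unstated there and in the labels. The deposited columns are, per the file headers, those of DESeq2: a mean signal (size-factor scaled counts), a log2 effect and its SE, a score (the Wald statistic), and a p-value, raw and with Benjamini-Hochberg adjustment; the deposited score was checked to equal fold over SE, and the adjustment was recomputed to the same values. The lowest deposited mean is 4.79, and 7 of 19571 genes have no p. As the table has no column per sample, depth per library, intervals for counting error, and the planned fits of samples could not be had, and the authors' comparison is the main test.

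The 64 members and all gene lists were chosen with earlier results of these data known. Adjustments and alternatives were computed over all genes, in Python 3.11.15 with scipy 1.17.1; the adjustment and centring were tested on simulated data. Implied group means assume equal group sizes. Symbols were matched to GENCODE mouse M21 (GRCm38), all 19571, 39 of them with several loci of which the first was used; exon length is the union of annotated exons. Promoters are RefSeq's (GRCm38.p6). Named in full were members past the threshold or under an unadjusted p of 0.05, and per role group the one with the highest mean count and the one with the largest fold change; further members with values were picked with those values known. The tables of transposable elements carry no coordinates, so the planned count of copies within member genes was not made. The values of 1 member are not reported here by name; it stays in all counts.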

Additional observations from a re-analysis of the deposited data

How the results depend on the processing

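The count of members called was 2 with adjusted p under 0.01, with an absolute log2 change of 1 or more, and with centring on the median of all genes, in 20 bins of mean count, or, chosen after seeing the data, of exon length or GC share, and with 9 enzymes of other symbols added. It was 1 (Prdm11) with a mean count of at least 50, 1 (Prdm11) with Wald statistics scaled by their interquartile range, 1 (Kdm4dl) without the PRDM genes and 1 (Prdm11) without Nsdhl, Kdm6bos and Kdm4dl, the last chosen after seeing the data. It was 0 with Bonferroni adjustment of the DESeq2 p, where 3 members have an unadjusted p under 0.05. Calls over all genes went from 1288 to 767 with adjusted p under 0.01, 737 with a mean of at least 50 (70.1% of them higher, against 81.1%), 455 with scaled Wald statistics and 309 with Bonferroni. Over its alternatives the adjusted p of Prdm11 ran from 0.000154 to 0.115 and that of Kdm4dl from 0.000876 to 0.853, the highest under Bonferroni. The median log2 fold change of members ran from -0.03 (exon length) to 0.17 (mean count), from 0.03 in the main setting. The median SE of members with a mean of at least 50 was 0.30. That is the error of single genes and does not measure the spread of this median. No paired analysis was possible because the deposited table has no values per sample; for the same reason leaving out replicates and a second count tool were not run.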

Other observations

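The arginine methyltransferases, the other large class of histone methylating enzymes, were listed beside the lysine enzymes. Of 9 tested, 0 passed, where 6.58% of all genes were called. Values lay below 0 for 6 of the 9, with a median log2 fold change of -0.12. All genes with a mean of at least 50 had a median of -0.11. The implied levels of the 9 summed to 45665 normalized counts in WT and 34724 in KO. This difference is carried mostly by Prmt1 (20548 and 13291) and then Prmt7, neither of which passed. Prmt7 had 10109 in WT and 7108 in KO, and the authors' deposited table gives -0.51 ± 0.22 with an unadjusted p of 0.0190 and an adjusted p of 0.170. Prmt1, with the highest count, stands at -0.63 ± 0.38 in the authors' deposited table.

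Long members were measured with a wider error. Among the 60 with a mean of at least 50, Spearman's rho of the SE with exon length was 0.39, while across 12330 protein-coding genes it was -0.17; this is a description, and its cause was not tested. The 5 largest SEs among them, from 0.46 to 0.60 in the authors' deposited table, are those of Setd1b, Kmt2e, Ash1l, Smyd1 and Kmt2c, of which Smyd1 is not long, at 4546 exon bases.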
